A study of Mus musculus with 17 samples.

Results

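The 28 genes described here make cholesterol in the mouse kidney or regulate, move and export it. They were chosen by gene name from a deposited expression table: 8 enzymes that turn acetyl-CoA into isoprenoids, 12 enzymes that turn isoprenoids into squalene and then cholesterol, 4 genes of the SREBP2 sterol sensor, and 4 genes of sterol transport, storage and efflux. All 28 were found among 42794 complete gene lines. Of the 28 members, 27 reached an FPKM (fragments per kilobase, corrected for the size of the library) of 1 in at least 4 libraries and were tested with 13279 genes in all. The enzyme gene Fdps did not reach that level in any library.

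RNA from whole mouse kidney was sequenced in 17 libraries, in a series on what glucagon does to lipid synthesis in proximal tubule cells and to diabetic kidney disease. The 7 libraries labelled Gcgr shRNA are named for a hairpin RNA that targets Gcgr, the gene of the glucagon receptor, and that was designed to act in proximal tubule epithelial cells, and their titles carry the letters DKD. The 6 Ctr shRNA libraries have that genotype label, and their titles read DKD and Vehicle, so a control hairpin and a plain vehicle are both possible readings. The 4 control libraries are labelled WT and carry neither DKD nor a hairpin in their labels. Both DKD groups therefore differ from control by the disease label and by the hairpin or vehicle together, and these cannot be told apart. Strain, sex, age, the way the disease was induced, the vector and the promoter of the hairpin have no entry in the labels used. Each library goes by its group and title number. No label says that each library is a separate animal, and the p-values reflect the spread among libraries, which may be technical.

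Each library held 13997657 to 17107876 reads as recovered from the table. The receptor gene went against its label: Gcgr averaged 13.02 ± 1.70 FPKM in the libraries labelled Gcgr shRNA (SD, n = 7), 9.74 ± 2.14 in Ctr shRNA (SD, n = 6) and 20.8 ± 2.42 in control (SD, n = 4). In the libraries labelled Gcgr shRNA it was thus 0.40 log2 units higher than in Ctr shRNA (exact two-sided permutation test, p = 0.00641). In the test over all genes used below, this difference did not pass (limma, adjusted p = 0.413). The lowest Ctr shRNA value, 5.89 FPKM, was that of Ctr shRNA 20. Gcgr was read in whole kidney, so its level in the proximal tubule cells that the hairpin was designed for was not measured. Every direction drawn from the Gcgr shRNA label below compares libraries by name and not by a measured knockdown. Ctr shRNA 20 stood apart, with a summed level of 6 adipocyte markers of 597.7 FPKM (38.2 or less in every other library) and of 5 urothelial markers of 170.3 FPKM (9.97 or less elsewhere), and with the lowest proximal tubule sum of all 17 libraries. The 10 proximal tubule markers, each reaching an FPKM of 1, summed to 3918 to 4698 in the libraries labelled Gcgr shRNA, 3363 to 4881 in Ctr shRNA and 4758 to 5662 in control. The sum of 6 thick ascending limb markers was 833 to 1154 FPKM in the libraries labelled Gcgr shRNA, 379 to 1008 in Ctr shRNA and 997 to 1377 in control. The 10 macrophage markers are given beside the efflux genes. Adrenal cortex, a steroid-making tissue next to the kidney, was represented by 5 markers that summed to 0.747 to 1.66 FPKM in every library, with 1 of them reaching an FPKM of 1.

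Cells make cholesterol from acetyl-CoA through mevalonate, isoprenoid diphosphates, squalene and lanosterol. When membranes are low in sterol, SCAP carries the transcription factor SREBP2 from the endoplasmic reticulum to the Golgi, where proteases release its active part, which switches on nearly every gene of the pathway. When sterol is plentiful, INSIG proteins hold SCAP back, and oxysterols activate the nuclear receptors LXR, which switch on the efflux pumps ABCA1 and ABCG1.

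SREBP2 binds sterol regulatory elements near gene starts together with NF-Y, which binds the CCAAT box, and SP1, which binds the GC box, so the starts of the genes with the results below were read for these letters. RefSeq promoter windows (build GRCm38.p6, 250 bases before and 50 after a start) matched 23 of the 28 members. Abcg1, Sqle, Stard4, Fdft1 and Fdps had no entry. The starts used lay within 214 bases of the gene's 5′ end in the table, except for Lbr (645 bases) and Tm7sf2 (9347 bases). Counting both strands, CCAAT stood in 19 of 23 windows (82.6%), against 37.4% of all 32851 windows in the table, and 11 members had at least 2 copies, against 11.7% of all windows. The GC box GGGCGG stood in 20 of 23 (87.0%), against 35.7% of all windows. The E-box CACGTG stood in 5 of 23 (21.7%) against 7.15%, and the sterol regulatory element core TCACNCCAC in 1 of 23 (4.35%, Hmgcs1) against 1.24%. None of the 4 spellings contains another. The members' windows had a median GC content of 62%, against 52.7% for all windows. The shares were not matched for it, for gene type or for expression in kidney. Each matched member gave 1 window, while the 32851 windows belong to 27025 genes. Of these genes, 41.1% had CCAAT and 38.2% the GC box in at least 1 window. A match is a description of letters and not a measured binding site, and the core searched is a single strict spelling.

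The 150 bases before the RefSeq start are shown for the SREBP2 target Hmgcs1 and for the 5 enzymes that passed the test below. They are written 5′ to 3′ on the gene's strand. Capitals mark CCAAT or its reverse complement ATTGG, and in Hmgcs1 also the sterol regulatory element core. They lie at chr13:119690201-119690350 (plus strand) for Hmgcs1, chr5:114444119-114444268 (plus) for Mvk, chr13:8885456-8885605 (plus) for Idi1, chr5:4104698-4104847 (minus) for Cyp51, chr9:42264301-42264450 (minus) for Sc5d and chr7:143823017-143823166 (plus) for Dhcr7.
Hmgcs1: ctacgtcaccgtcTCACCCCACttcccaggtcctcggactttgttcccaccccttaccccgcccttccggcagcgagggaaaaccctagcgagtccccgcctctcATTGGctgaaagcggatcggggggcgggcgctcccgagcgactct
Mvk: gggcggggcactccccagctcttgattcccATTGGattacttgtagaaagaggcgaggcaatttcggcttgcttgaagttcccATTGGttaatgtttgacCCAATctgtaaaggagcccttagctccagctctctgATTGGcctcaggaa
Idi1: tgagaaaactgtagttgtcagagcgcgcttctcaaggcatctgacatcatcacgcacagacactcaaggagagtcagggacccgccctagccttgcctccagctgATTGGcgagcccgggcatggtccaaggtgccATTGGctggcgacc
Cyp51: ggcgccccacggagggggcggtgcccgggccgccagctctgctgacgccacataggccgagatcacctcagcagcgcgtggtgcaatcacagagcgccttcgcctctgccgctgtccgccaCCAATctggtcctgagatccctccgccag
Sc5d: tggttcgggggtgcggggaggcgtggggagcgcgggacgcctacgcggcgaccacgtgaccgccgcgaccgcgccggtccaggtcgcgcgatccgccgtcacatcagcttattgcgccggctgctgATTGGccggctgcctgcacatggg
Dhcr7: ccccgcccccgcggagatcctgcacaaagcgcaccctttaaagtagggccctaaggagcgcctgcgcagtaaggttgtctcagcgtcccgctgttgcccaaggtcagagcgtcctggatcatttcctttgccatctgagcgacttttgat
Mvk carries 4 copies in this stretch, Idi1 2, and Hmgcs1, Cyp51 and Sc5d 1 each. Dhcr7 has none in its whole window. Counted back from the start, the nearest copy lies at base -14 in Mvk and in Idi1, -24 in Sc5d, -29 in Cyp51 and -45 in Hmgcs1. The RefSeq start lies inside the gene as placed in the deposited table by 105 bases in Idi1, 49 in Cyp51 and 22 in Dhcr7. The marked copies of Idi1 and Cyp51 therefore lie within the gene's bounds there.

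A set of 5 enzymes of the pathway fell in Ctr shRNA kidneys relative to control: Mvk and Idi1 of the mevalonate arm, and Cyp51, Sc5d and Dhcr7 of the sterol arm (limma on log2(FPKM + 1), Benjamini-Hochberg adjusted p under 0.05 over all 13279 genes). They are 5 of 27 tested members (18.5%), where 3.91% of all tested genes passed as lower. That count depended on single libraries: it was 1 without control 37, 2 without control 39, 3 without control 38 or Ctr shRNA 4, and 2 without the filter on low values. No member passed as higher, where 3.58% of all genes did. The fall was largest in Cyp51, to 0.454-fold, and the other 4 lay between 0.588-fold and 0.757-fold, on the log2(FPKM + 1) scale. Over all 27 members the median log2 fold change was -0.20, with 20 below 0, and over all tested genes it was 0.007, with 48.5% below 0. In a whole kidney, fewer cells of a type and less RNA per cell cannot be told apart, and the proximal tubule and thick ascending limb sums above were also lower in most DKD libraries; their part in these values was not tested.

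**Figure D1:**
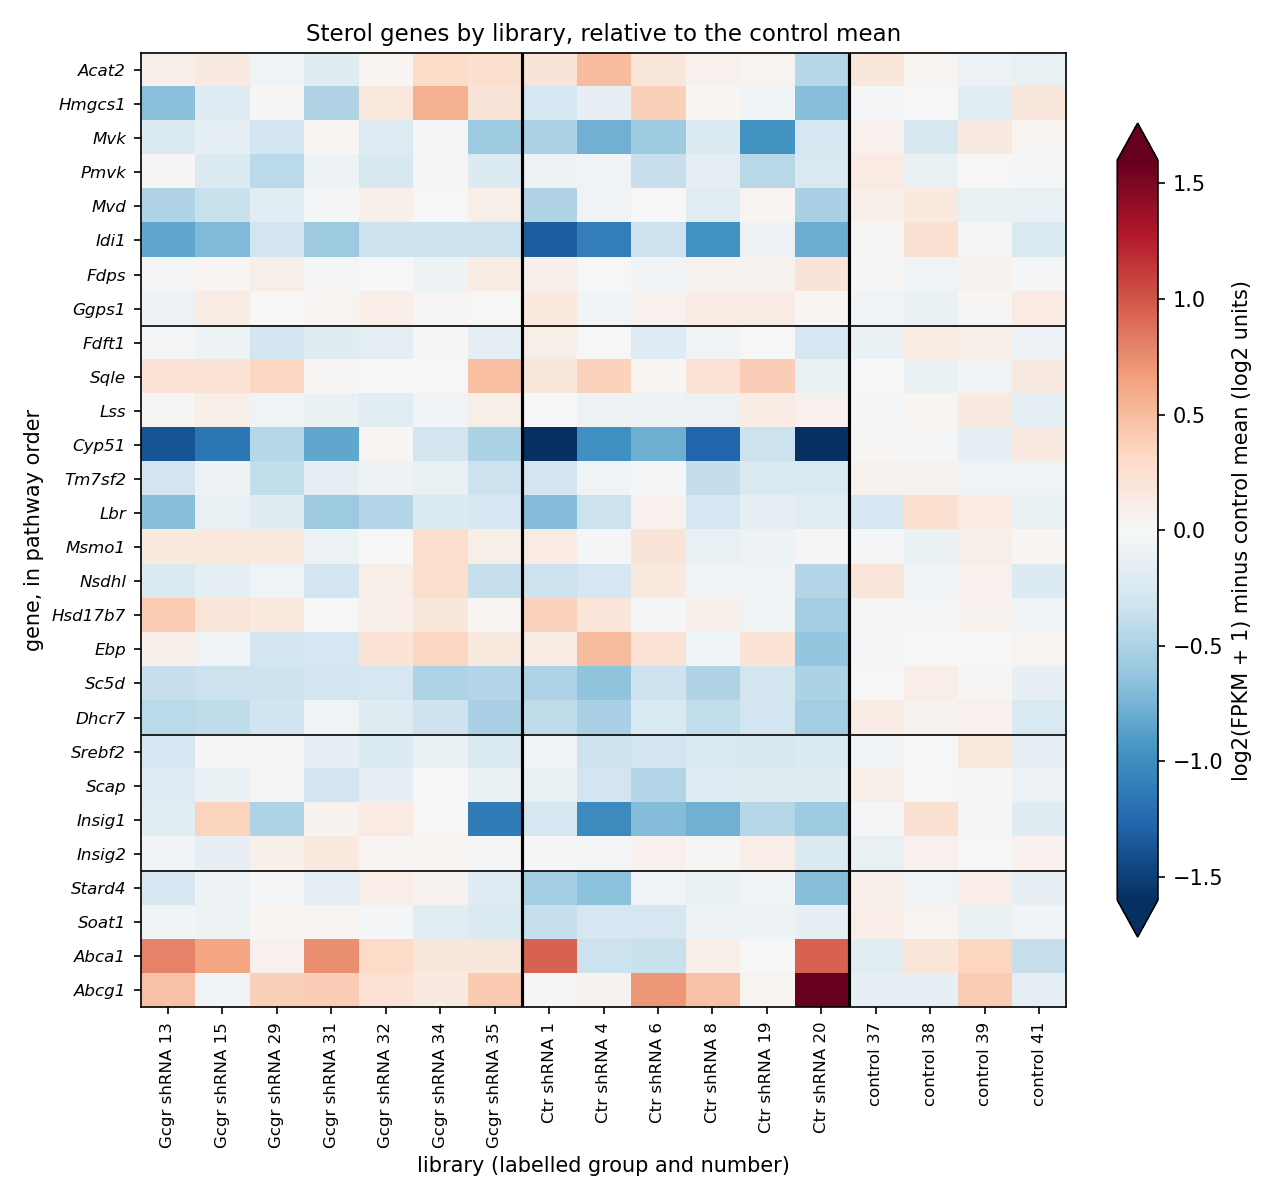
Each square is 1 gene (rows, in pathway order) in 1 library (columns, by labelled group), coloured by log2(FPKM + 1) minus the mean of the 4 control libraries, in log2 units; horizontal lines separate the mevalonate arm, the sterol arm, the SREBP2 genes and the transport genes. Cyp51, Idi1, Sc5d and Dhcr7 are blue across most shRNA libraries, and Abcg1 is darkest in Ctr shRNA 20. Abca1 is most strongly red in 5 shRNA libraries. It lies above the control mean in every library labelled Gcgr shRNA and on both sides of it in Ctr shRNA.

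Levels differed widely along the pathway. FPKM is scaled by the gene length in the table, which for some genes is far from that of the GENCODE M21 transcript compared here (10787 against 4667 bases for Lss, 6144 against 2044 for Msmo1, 4066 against 5832 for Abcg1), so levels of different genes compare only roughly. In control, Hmgcs1, the enzyme that makes the precursor of mevalonate, was highest at 102 ± 10.3 FPKM, followed by Cyp51 at 61.4 ± 4.95. Ebp, a sterol isomerase, had 38.8 ± 0.820 FPKM and Acat2, the thiolase of the opening step, 38.3 ± 3.79, so these neighbours did not differ beyond their spread. Mvd followed at 34.96 ± 3.57. From Scap at 15.3 ± 0.878 down to Idi1 at 11.2 ± 1.68 lay 8 genes, each within its neighbours' spread. At the low end were Lss, lanosterol synthase, at 1.80 ± 0.235 and Abcg1 at 0.843 ± 0.377 (SD, n = 4 throughout).

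Fdps, farnesyl diphosphate synthase, read 0.0145 to 0.240 FPKM over all 17 libraries, which is 1 to 19 reads each. Of its transcript, 91.4% has a stretch of at least 95% identity in 6 other genes of the GENCODE M21 annotation, and 26.7% of its exonic bases overlap another gene on the same strand, so reads may have been left out or split and its level is uncertain. The same holds in part for Acat2 (65.6% of its transcript) and Fdft1 (54.7%), and Idi1 shares 33.3%. Mvk, Sc5d and Dhcr7 share no such stretch, and Cyp51 shares 4.22%.

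In the mevalonate arm, mevalonate kinase Mvk (chr5:114444269-114460591) ran over 3.10, 4.29 and 5.25 FPKM in the libraries labelled Gcgr shRNA (lowest, median, highest), over 2.15, 3.22 and 4.24 in Ctr shRNA, and read 5.41, 4.11, 5.76 and 5.28 in controls 37, 38, 39 and 41. Only control 38 reached down into the Ctr shRNA range, just below Ctr shRNA 8. Mvk fell in Ctr shRNA relative to control by 0.55 ± 0.14 log2 units (SE; limma, adjusted p = 0.0238), to 0.684-fold. It rested on 84 to 234 reads a library, and the call was lost without Ctr shRNA 4 (adjusted p = 0.0530), control 37 (0.0755), 39 (0.0890) or 41 (0.0541), without the filter on low values (0.0619), with libraries rescaled to the same total (0.0580) and with the compared groups fitted alone (0.05004).

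Idi1 (chr13:8885501-8892451) encodes the isomerase that interconverts the 2 building blocks of isoprenoids. It ran over 5.79, 8.51 and 8.82 FPKM in the libraries labelled Gcgr shRNA, over 3.87, 5.58 and 10.4 in Ctr shRNA, and read 11.2, 13.3, 10.97 and 9.23 in the controls. All libraries labelled Gcgr shRNA lay under the lowest control, while Ctr shRNA 19 lay above it and Ctr shRNA 1, 4 and 8 were the lowest of all. The fall in Ctr shRNA relative to control was 0.77 ± 0.20 log2 units (adjusted p = 0.0246), to 0.588-fold. It was lost without Ctr shRNA 4 (adjusted p = 0.0544), control 37 (0.0680), 38 (0.0932) or 39 (0.0678), without the filter (0.0653) and with the compared groups alone (0.0696).

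The other mevalonate-arm enzymes did not pass in that comparison. Log2 fold changes were -0.23 for Pmvk, phosphomevalonate kinase, -0.20 for Mvd, mevalonate diphosphate decarboxylase, -0.12 for Hmgcs1, 0.07 for Ggps1, geranylgeranyl diphosphate synthase, and 0.09 for Acat2, with adjusted p from 0.161 to 0.778. Hmgcs1 varied most of these in both DKD groups, with 63.9, 104 and 152 FPKM in the libraries labelled Gcgr shRNA, 63.4, 95.6 and 133 in Ctr shRNA, and 99.9, 102, 90.8 and 116 in the controls. Its shRNA libraries thus fell on both sides of the controls, and its 95% interval for Ctr shRNA against control ran from -0.57 to 0.33 log2 units.

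In the sterol arm, Cyp51 (chr5:4081145-4104746), the lanosterol demethylase, changed most. It ran over 22.9, 42.9 and 62.9 FPKM in the libraries labelled Gcgr shRNA, over 17.5, 27.7 and 48.0 in Ctr shRNA, and read 62.0, 59.9, 56.0 and 67.8 in the controls. Every Ctr shRNA library lay under every control, and of the libraries labelled Gcgr shRNA only number 32 reached the control range. Cyp51 fell in Ctr shRNA relative to control by 1.14 ± 0.27 log2 units (adjusted p = 0.0174), and by 1.03 without Ctr shRNA 20 (adjusted p = 0.0313). The call was lost without control 37 (adjusted p = 0.0523) and without the filter on low values (0.0505). Its coefficient of variation was 33.9% in the libraries labelled Gcgr shRNA and 39.8% in Ctr shRNA, against 8.05% in control.

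Sc5d (chr9:42251595-42264256), the desaturase that acts on lathosterol, gave the steadiest difference. It ran over 6.25, 7.08 and 7.50 FPKM in the libraries labelled Gcgr shRNA, over 5.56, 6.26 and 7.32 in Ctr shRNA, and read 9.29, 9.99, 9.34 and 8.29 in the controls. All 13 shRNA libraries lay under all 4 controls. The fall in Ctr shRNA relative to control was 0.46 ± 0.07 log2 units (adjusted p = 0.00118), to 0.727-fold, and it passed under all 28 alternatives, each library left out in turn included.

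Dhcr7 (chr7:143823145-143848410), the reductase that makes cholesterol from its dehydro precursor, ran over 2.42, 2.88 and 3.65 FPKM in the libraries labelled Gcgr shRNA, over 2.33, 2.70 and 3.13 in Ctr shRNA, and read 4.28, 4.06, 4.13 and 3.13 in the controls. Control 41 was the lowest control and lay just above the highest Ctr shRNA library, number 6. Dhcr7 fell in Ctr shRNA relative to control by 0.40 ± 0.09 log2 units (adjusted p = 0.0152). The call was lost without control 37 (adjusted p = 0.0652), 38 (0.0559) or 39 (0.0610). Without Ctr shRNA 20 all 5 enzymes still passed, with adjusted p from 0.00228 for Sc5d to 0.0356 for Idi1.

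**Figure D2:**
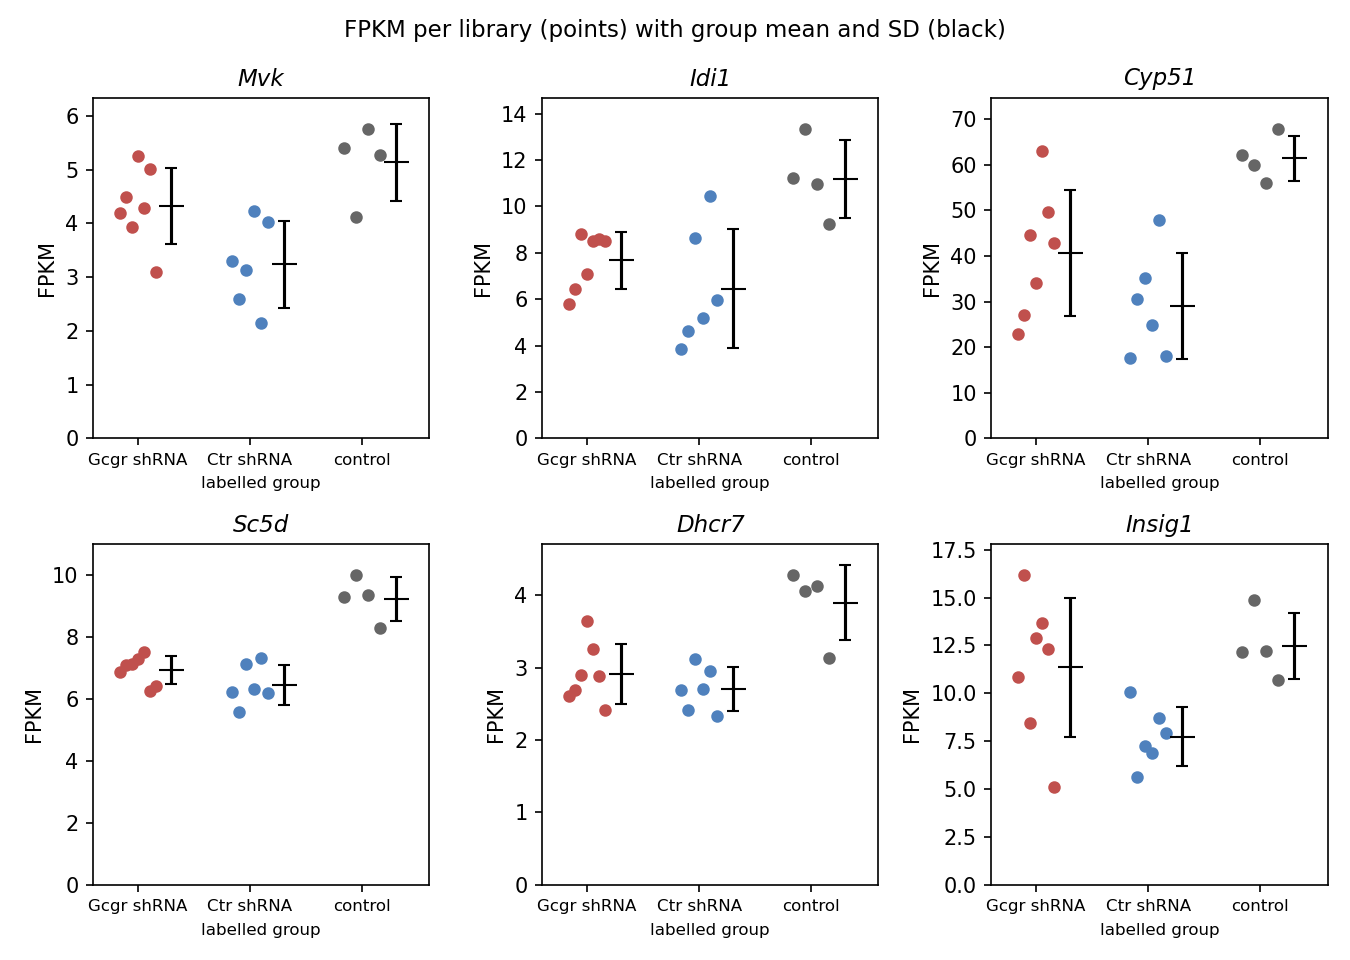
FPKM (vertical axes, from 0) of 5 enzymes and the sensor gene Insig1, with 1 point per library and the group mean with its SD in black, by labelled group. All shRNA points of Sc5d lie under the 4 control points, while those of Cyp51 spread from 17.5 to 62.9 FPKM.

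The remaining 9 sterol-arm enzymes did not pass in Ctr shRNA against control. Lbr, the lamin B receptor with sterol reductase activity, had the largest difference of them, at -0.27 ± 0.14 log2 units (adjusted p = 0.275). It ran over 3.83, 5.45 and 6.20 FPKM in the libraries labelled Gcgr shRNA, over 3.79, 5.64 and 7.14 in Ctr shRNA, and read 5.47, 8.30, 7.51 and 6.17 in the controls, so the groups overlapped. Tm7sf2, the other sterol reductase of that step, differed by -0.20 (adjusted p = 0.151), and Nsdhl, a sterol dehydrogenase, by -0.18 (0.454). Fdft1 (squalene synthase), Lss, Hsd17b7 (a ketosterol reductase), Msmo1 (a methylsterol oxidase) and Ebp lay between -0.07 and 0.06, and Sqle, squalene epoxidase, was at 0.18 (adjusted p = 0.340). Of these 9, the 95% interval of Tm7sf2 lay below 0 (-0.38 to -0.03) and those of the other 8 spanned 0.

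The 4 SREBP2 genes did not pass in Ctr shRNA against control, and all 4 estimates lay below 0. Srebf2, which encodes the transcription factor, differed by -0.23 ± 0.07 log2 units (adjusted p = 0.0617) and Scap, its escort, by -0.24 ± 0.08 (adjusted p = 0.0625). Srebf2 passed without Ctr shRNA 1 (adjusted p = 0.0332) or control 41 (0.04998), and Scap without Ctr shRNA 1 (0.0489). Insig2 differed by -0.02 (adjusted p = 0.908).

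Insig1 (chr5:28071363-28078662) encodes the sterol-induced retention protein and is itself an SREBP2 target. It ran over 5.09, 12.3 and 16.2 FPKM in the libraries labelled Gcgr shRNA, over 5.61, 7.60 and 10.1 in Ctr shRNA, and read 12.1, 14.8, 12.2 and 10.7 in the controls. Every Ctr shRNA library lay under every control, and the libraries labelled Gcgr shRNA covered the ranges of both other groups, with number 35 the lowest of all 17. The difference of Ctr shRNA from control was -0.63 ± 0.22 log2 units (adjusted p = 0.0865), and it passed without the library labelled Gcgr shRNA 35 (adjusted p = 0.0202), a library of neither group that adds to the shared estimate of the spread, and with the compared groups alone (0.0239). The 5 members Cyp51, Dhcr7, Insig1, Sc5d and Scap had no overlap between Ctr shRNA and control with the lower values in Ctr shRNA (18.5%, against 5.41% of all tested genes), and none had the higher values (4.71% of all genes).

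Of the 4 transport, storage and efflux genes, none passed in Ctr shRNA against control, with 2 estimates below 0 and 2 above. Stard4, a carrier of cholesterol between membranes, differed in Ctr shRNA from control by -0.35 ± 0.13 log2 units (adjusted p = 0.111) and Soat1, which esterifies cholesterol for storage, by -0.20 ± 0.08 (adjusted p = 0.115). The LXR-driven pump gene Abcg1 differed by 0.63 ± 0.35 (adjusted p = 0.294) and Abca1 by 0.21 ± 0.26 (adjusted p = 0.666).

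Abcg1 ran over 0.761, 1.36 and 1.51 FPKM in the libraries labelled Gcgr shRNA, over 0.837, 1.200 and 9.21 in Ctr shRNA, and read 0.659, 0.661, 1.41 and 0.643 in the controls. The value of 9.21 belongs to Ctr shRNA 20, the library with the high adipocyte and urothelial sums, and without it the difference of Ctr shRNA from control was 0.26 (adjusted p = 0.347). The groups overlapped.

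Abca1 (chr4:53030787-53159895) ran over 2.29, 2.87 and 4.45 FPKM in the libraries labelled Gcgr shRNA, over 1.45, 2.24 and 5.04 in Ctr shRNA, and read 1.77, 2.604, 2.99 and 1.44 in the controls. Its high values came from 5 shRNA libraries: those labelled Gcgr shRNA 13, 31 and 15 at 4.45, 4.24 and 3.86, with Ctr shRNA 1 at 5.04 and Ctr shRNA 20 at 5.02. The other 8 shRNA libraries read 1.45 to 2.87, inside the control range. The sum of 10 macrophage markers, cells that express these pumps, was 102 to 174 FPKM in the libraries labelled Gcgr shRNA, 73.7 to 178 in Ctr shRNA and 72.6 to 96.9 in control. In the 5 libraries with high Abca1 it was 124, 174 and 102 for the libraries labelled Gcgr shRNA 13, 31 and 15, 104 for Ctr shRNA 1 and 145 for Ctr shRNA 20. In Ctr shRNA 6, where it was highest at 178, Abca1 read 1.45. The part of these cells in the Abca1 values was not tested.

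The mean of the synthesis enzymes differed between libraries. It includes the 5 enzymes that passed above, so it is not separate from those results. The mean over 19 enzymes of log2(FPKM + 1) relative to control was -0.14 ± 0.09 in the libraries labelled Gcgr shRNA (SD, n = 7; -0.25 to 0.007) and -0.22 ± 0.12 in Ctr shRNA (SD, n = 6; -0.42 to -0.09), against an SD of 0.03 around 0 in control (n = 4; -0.05 to 0.02). The same mean over all tested genes stayed within -0.005 to 0.04 in every library. The library labelled Gcgr shRNA 34 lay inside the control range, and no Ctr shRNA library reached the lowest control. Those labelled Gcgr shRNA 13 and 31 were the lowest of their group, at -0.25 and -0.22, and Ctr shRNA 20 and Ctr shRNA 1 the lowest of theirs, at -0.42 and -0.28. Abca1 read 4.45, 4.24, 5.02 and 5.04 FPKM in these 4 libraries, but 2.36 in Ctr shRNA 8, whose enzyme mean of -0.22 was as low as that of the library labelled Gcgr shRNA 31. Without Ctr shRNA 20 the Ctr shRNA mean was -0.18. Of the 19 enzymes, 12 and 16 lay below their control mean in the libraries labelled Gcgr shRNA 13 and 31. That count was 16 in Ctr shRNA 20 and 12 in Ctr shRNA 1, and it was 7, 9, 8 and 12 in controls 37, 38, 39 and 41. The count of 12 was thus also reached by control 41, whose mean was -0.05.

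**Figure D3:**
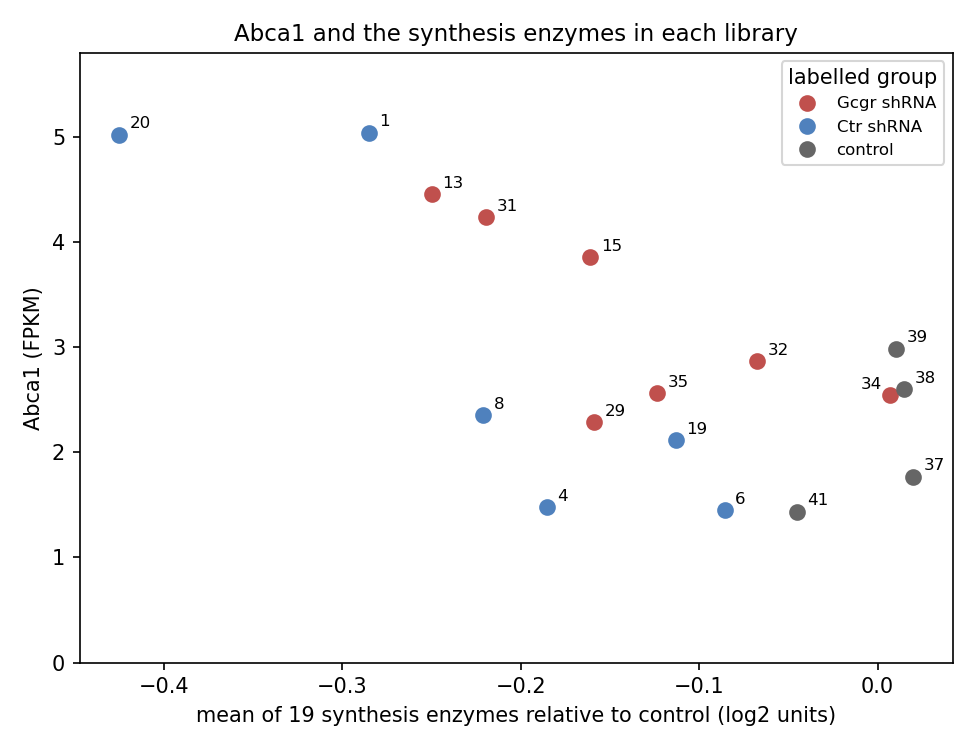
Abca1 in FPKM (vertical axis, from 0) against the mean of 19 synthesis enzymes relative to control in log2 units (horizontal axis), with 1 numbered point per library, coloured by labelled group. Those labelled Gcgr shRNA 13 and 31 and the libraries Ctr shRNA 20 and 1 lie at the upper left with 4.24 to 5.04 FPKM, while Ctr shRNA 8, at a similar enzyme mean of -0.22, lies at 2.36 FPKM.

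In the libraries labelled Gcgr shRNA against Ctr shRNA no member passed, and neither did any of the 13279 genes (0%). At an unadjusted p under 0.05 there were 3 members, Mvk, Insig1 and Stard4 (11.1%), where 7.32% of all tested genes reached it, each higher in the libraries labelled Gcgr shRNA. Mvk differed by 0.34 ± 0.12 log2 units (adjusted p = 0.509), Insig1 by 0.45 ± 0.19 (adjusted p = 0.604) and Stard4 by 0.27 ± 0.11 (adjusted p = 0.606). No member had ranges without overlap, against 0.203% of all genes in either direction. Cyp51 differed by 0.49 ± 0.24, with a 95% interval from -0.01 to 0.98, and Idi1 by 0.27, with an interval from -0.08 to 0.63. The median over the members was 0.07, with 9 of 27 below 0, and over all genes -0.004. Insig1 read 5.09 in the library labelled Gcgr shRNA 35 and 8.47 to 16.2 in the other 6, against 5.61 to 10.1 in Ctr shRNA.

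Against control, the libraries labelled Gcgr shRNA had 1 member that passed as lower, Sc5d (3.70%, against 0.595% of all genes), and none as higher (1.42% of all genes). Sc5d fell by 0.37 ± 0.07 log2 units (adjusted p = 0.00996), and this was lost without control 38 (adjusted p = 0.0588). Dhcr7 differed by -0.32 ± 0.09 (adjusted p = 0.0815) and passed without the library labelled Gcgr shRNA 31 (adjusted p = 0.0392) or control 41 (0.0389). Cyp51 differed by -0.65 ± 0.27 (adjusted p = 0.230), Idi1 by -0.49 ± 0.19 (0.205, and 0.0448 with the compared groups alone), Lbr by -0.36 ± 0.14 (0.203), Abca1 by 0.41 ± 0.25 (0.428) and Mvk by -0.21 ± 0.13 (0.468). The 3 members Idi1, Sc5d and Tm7sf2 were lower in these libraries with no overlap with control (11.1%, against 2.23% of all genes), and none was higher (3.31%). Both DKD groups were set against the same 4 control libraries, so their agreement in direction is not independent.

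**Figure D4:**
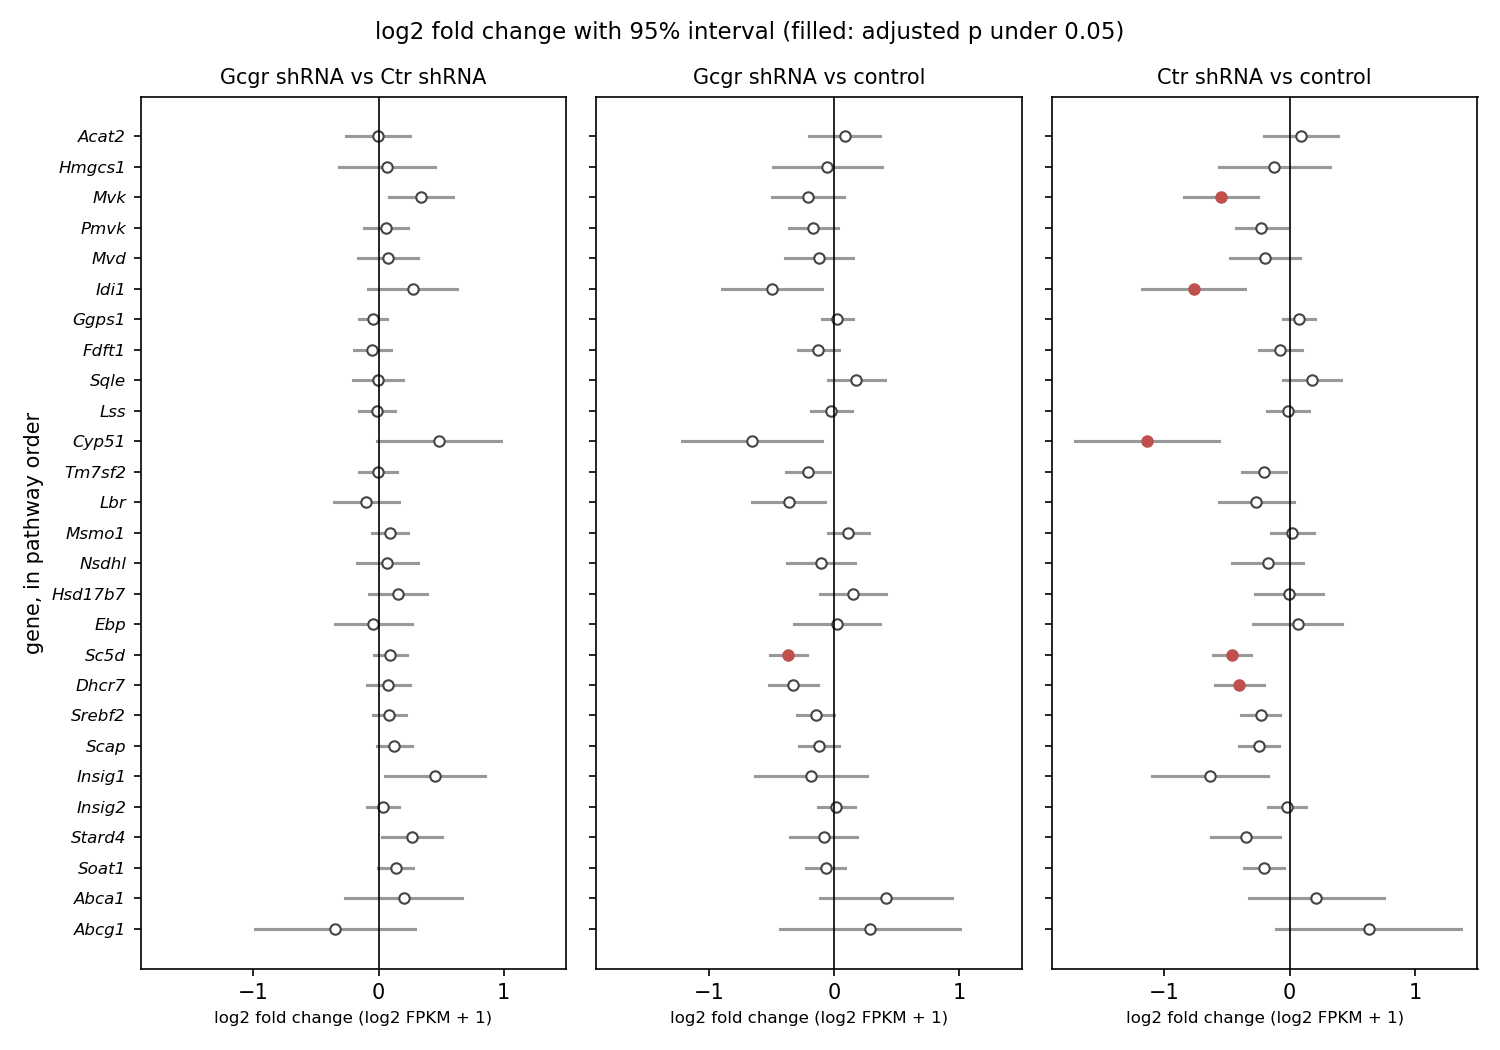
Log2 fold change on the log2(FPKM + 1) scale (points) with its 95% interval (lines) for the 27 tested members in the 3 comparisons, filled where the adjusted p was under 0.05. There are 5 filled points in Ctr shRNA against control, 1 in the libraries labelled Gcgr shRNA against control, and 0 between the DKD groups.

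Other genes of sterol biology were read from 6 lists, in which a single call in a short list is to be read against the 3.91% of all genes that passed as lower and 3.58% as higher in Ctr shRNA against control. Among the genes that cleave or degrade SREBP and its partners, Mbtps1, the Golgi protease that makes the opening cut in SREBP, fell in Ctr shRNA relative to control by 0.31 ± 0.09 log2 units (adjusted p = 0.0448). The call was lost without most of the libraries left out in turn (adjusted p up to 0.129) and with libraries rescaled to the same total (0.170). Among 12 genes of sterol uptake and movement 1 fell, Cubn, the proximal tubule receptor cubilin, by 0.44 ± 0.12 (adjusted p = 0.0335), which was lost without Ctr shRNA 1, 4 or 6 or control 37, 38 or 39 (up to 0.124). Cubn is also 1 of the 10 proximal tubule markers above. Among 3 genes of acetyl-CoA supply 1 fell, Acat1, the mitochondrial thiolase, by 0.44 ± 0.13 (adjusted p = 0.0454), a call lost without most of the libraries in turn, every control among them (up to 0.122).

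Apoe, the lipoprotein component that LXR drives in macrophages and fat, was the 1 of 6 tested LXR genes that passed, and it rose. It averaged 108 ± 17.5 FPKM in the libraries labelled Gcgr shRNA, 106 ± 35.1 in Ctr shRNA and 54.4 ± 4.05 in control. The libraries labelled Gcgr shRNA ran from 90.3 to 133, above the highest control at 59.6, and Ctr shRNA from 55.1 to 165, with number 19 inside the control range. It was 1.84-fold higher in Ctr shRNA than in control (log2 0.88 ± 0.20, adjusted p = 0.0136) and 1.95-fold higher in the libraries labelled Gcgr shRNA (0.96 ± 0.20, adjusted p = 0.0148; 0.0664 without control 38 and 0.0638 with libraries rescaled to the same total). The macrophage sums given above were also higher in most shRNA libraries than in control, and their part in the Apoe values was not tested.

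None of the 3 tested oxysterol enzymes passed. Cyp7b1, which clears oxysterols, averaged 70.3 ± 23.3 FPKM in the libraries labelled Gcgr shRNA, 54.9 ± 31.5 in Ctr shRNA and 109 ± 23.3 in control, a difference of -1.21 ± 0.42 log2 units in Ctr shRNA against control (adjusted p = 0.0861) that passed without Ctr shRNA 19 (0.0342). Cyp27a1, which makes an oxysterol that activates LXR, differed by 0.15 (adjusted p = 0.463). Between the libraries labelled Gcgr shRNA and Ctr shRNA none of the genes of the 6 lists passed. Acly, the citrate lyase that supplies acetyl-CoA, was 1 of those with the smallest p there, at 44.0 ± 4.31 FPKM in the libraries labelled Gcgr shRNA and 38.9 ± 3.47 in Ctr shRNA (0.17 ± 0.07 log2 units, adjusted p = 0.604), and Osbp, an oxysterol-binding carrier, another, at 20.2 ± 0.782 and 18.2 ± 1.23 FPKM in these groups (0.14 ± 0.05, adjusted p = 0.517).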

How the data were processed

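RNA of whole mouse kidney was extracted with Trizol, and per the labels' protocols the libraries came from a SMARTer kit for mRNA. Per the file headers, the authors deposited 1 table of FPKM with each gene's position and length. The submitters' processing notes list GRCm38 and mm10, 2 names of the same build. Aligner, counter, annotation and strand setting: not given in the sources used here. Genes that share exons or near-identical copies may therefore gain or lose reads. FPKM times gene length came in whole steps of 1 read in each library (100% of values up to 200 steps, within 0.05 of a step), which gave the reads per gene and 13997657 to 17107876 reads per library. Chi-square over degrees of freedom, which is 1 for counting error alone, was 7.14 to 76.1 between libraries of a group, so none was merged, and 1 incomplete gene line was left out.

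Values were used as log2(FPKM + 1), a scale on which low genes change too little. The 13279 genes at or above FPKM 1 in 4 or more libraries were fitted in 1 model with a mean per group over all 17 libraries by limma 3.58.1 (limma-trend, R 4.3.3), with Benjamini-Hochberg adjustment over all of them and a threshold of 0.05. Gcgr was compared by exact permutation tests. Intervals are 95% intervals of the fitted difference. The steps were tested on simulated data with 200 changed genes. Alternatives, 28 per comparison, covered the pseudocount, the filter, scaling, groups fitted, library weights, robust variance, limma voom on the recovered reads, each library left out, and Ctr shRNA 20 and Gcgr shRNA 31 left out together.

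The members, lists, markers and alternatives were chosen with earlier results of these data known. All 28 members are named, with values by library for those that passed and for the 4 others with the largest log2 fold change. Hmgcs1 was added to these after its values were seen. Of the 6 other lists, genes that passed are named, or examples from the pair with the smallest p, and some genes that this rule picks are left out of the text. Motifs were counted in RefSeq promoter windows of GRCm38.p6, using for each gene the start nearest to the 5′ end in the deposited table. Stretches of at least 95% identity over 100 bases were sought in GENCODE M21 transcripts of GRCm38.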

Additional observations from a re-analysis of the deposited data

Results flagged for a closer look

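Among 81 groups of values (27 members in 3 groups), 3 held a library far from the others of its group by Dixon's test, or 3.70%, where chance gives about 1 in 20. Srebf2 read 13.99 FPKM in Ctr shRNA 1, and the next value of that group was 12.2. Abcg1 read 9.21 FPKM in Ctr shRNA 20, and the next value was 1.96; this library also had the highest adipocyte and urothelial marker sums. Abcg1 read 1.41 FPKM in control 39, and the next value was 0.661. This control had an adipocyte marker sum of 16.8 FPKM, against 1.12 or less in the other 3. With a sum of 18.3 FPKM, Ctr shRNA 19 had Abcg1 at 0.877, and Ctr shRNA 6, with 0.192, had it at 1.96. The part of adipocytes in the Abcg1 values was not tested.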

How the results depend on the processing

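The precision of the low members is limited by depth, since Mvk rested on 84 to 234 reads a library, Abcg1 on 38 to 706 and Fdps on 1 to 19. No named member reversed its direction after passing the test. Of 747 member values under the alternatives in Ctr shRNA against control, 717 stayed on their side of the threshold, 18 lost the call and 12 gained it. In the libraries labelled Gcgr shRNA against control 741 stayed, 1 lost and 5 gained it, and between the DKD groups all 747 stayed.

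Members passing in Ctr shRNA against control numbered 5, 2 with no filter on low values, 9 with library weights (Srebf2, Scap, Insig1 and Tm7sf2 added), and 1 to 7 with a library left out (3 without Ctr shRNA 4, 1 without control 37, 3 without 38, 2 without 39). All genes passing there numbered 994, 597 with no filter, 2087 with library weights, and 456 to 1264 with a library left out. In the libraries labelled Gcgr shRNA against control, members numbered 1, 2 with the compared groups alone, with library weights or without Ctr shRNA 20 and Gcgr shRNA 31, and 0 to 2 with a library left out. All genes numbered 268 there, 155 with no filter, 154 with a mean FPKM of 5 or more, 438 with the compared groups alone, 1070 with library weights, and 103 to 348 with a library left out. Between the DKD groups no member passed under any alternative, and all genes numbered 0, 1 with a pseudocount of 0.1, with a mean FPKM of 5 or more or with the compared groups alone, and 0 to 3 with a library left out. The enzyme mean relative to control ran over -0.16 to -0.12 in the libraries labelled Gcgr shRNA and -0.25 to -0.18 in Ctr shRNA with a library left out. The cause of these changes was not tested.

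No paired analysis was possible because the library numbers do not recur between groups.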
